A study of Mus musculus with 12 samples.

Results

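The genes described here belong to type 2 immunity and to alternative macrophage activation in white adipose tissue. They were chosen by name, as 10 genes: Il33, Il1rl1, Il4ra, Il13ra1, Stat6, Retnla, Mgl2, Clec10a, Arg1 and Il10. Every probe set that the array annotation assigns to 1 of these symbols was taken, a probe set being a group of short probes on an Affymetrix array that read 1 transcript. Of the 45101 probe sets on the array, 16 named 9 of the 10 genes. Of these, 12 probe sets of 7 genes exceeded a log2 signal of 4 on at least 3 arrays and were tested, among 26510 tested probe sets in all. No probe set in the annotation used here names Il1rl1, and this gene was not analysed here.

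The study exposed male C57/BL6 mice to cold, with an age of 6 to 8 weeks in the labels. Cold mice spent 1 week or 5 weeks at 4 °C, and each time had its own control mice; 3 arrays were hybridised per group, 12 in all. The labels describe housing at 22 °C for all mice and an adaptation to 18 °C of 1 to 3 weeks before the cold. For the controls the sample titles state 30 °C while the source names state room temperature, so that cold is compared with a control whose temperature is not settled. Neither the fat depot nor whether each array stands for its own animal is stated, and the p-values therefore measure the spread between arrays, which may be technical.

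Type 2 immunity is the arm of the immune system that answers worms, allergens and tissue damage. The alarmin encoded by Il33 is released from stromal cells and acts through its receptor, encoded by Il1rl1, on group 2 innate lymphoid cells, mast cells and regulatory T cells. These lymphoid cells and eosinophils supply the cytokines IL-4 and IL-13, which bind receptors that share the chain encoded by Il4ra. The receptors activate the transcription factor encoded by Stat6, and in mouse macrophages Stat6 turns on Arg1, Retnla, Mgl2 and Clec10a, the classical signs of alternative activation. In mouse adipose tissue these cells are known from lean fat and from studies of cold and beige adipocytes.

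The tested genes of the set were mostly lower in the cold, and none had a probe set that rose past the threshold at either time (17.5% of all tested probe sets rose at 1 week and 12.6% at 5 weeks). Before adjustment 1 did, Stat6 1421708_a_at at 1 week (limma unadjusted p = 0.0238). At 1 week 7 of the 12 tested probe sets, from 6 genes, were lower in cold than in control tissue (limma, Benjamini-Hochberg adjusted p under 0.05 over all tested probe sets), against 27.2% of all tested probe sets called lower. At 5 weeks 10 of the 12 probe sets, from all 7 tested genes, were lower, against a background of 18.5%. The median log2 difference, cold minus control, over the 12 probe sets was -0.62 at 1 week and -0.77 at 5 weeks, beside -0.04 and -0.02 over all tested probe sets. All 3 cold arrays lay below all 3 control arrays for 7 of the 12 probe sets at 1 week (background 29.9%) and above them for 2 (background 27.5%). The numbers at 5 weeks were 10 below (background 28.5%) and 0 above (background 27.1%). Over all tested probe sets, higher calls made up 39.1% of the calls at 1 week, and 60.9% and 47.6% after centring the arrays on their median and after quantile normalization. At 5 weeks they made up 40.5%, and 67.1% and 51.5% under those scalings. Centring moved the median of all tested probe sets to 0.12 at 1 week and 0.13 at 5 weeks. Of the 12 probe sets 2 were then called higher at 1 week, Il4ra 1423996_a_at (0.36, limma adjusted p = 0.0390) and Stat6 1421708_a_at (0.75, limma adjusted p = 0.0170), and 5 lower, against 31.1% and 20% of all tested probe sets. At 5 weeks 0 were then higher and 9 lower, against 25.2% and 12.4%.

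Signs of RNA quality and of other tissue moved with the groups. For the Gapdh control probe sets the signal at the 3' end minus that at the 5' end, which grows as RNA degrades, was -0.08, 0.34 and -0.08 in the 1 week cold arrays, against 0.90, 3.00 and 3.12 in the 1 week controls. In the 5 week cold arrays it was 0.96, 0.19 and 3.01, against 0.03, -0.01 and -0.08 in the 5 week controls. The same measure for Actb was 2.03, 1.84 and 2.80 in the 5 week cold arrays, against 1.04, 1.10 and 1.16 in their controls, and lay between 1.01 and 1.35 on the 1 week arrays. The mean log2 signal of 15 skeletal muscle markers was 5.14, 5.06 and 4.94 in the 5 week cold arrays, against 8.23, 8.53 and 8.40 in the 5 week controls. At 1 week it was 5.28, 9.94 and 5.39 in cold, against 5.42, 5.76 and 5.30 in control arrays. With the Actb measure as a covariate 1 of the 12 probe sets, that of Mgl2, kept its call at 5 weeks, while over all tested probe sets the share called, higher or lower, was 3.98% with that covariate and 31.1% without it. With the muscle mean 3 of the 12 did (Mgl2, Retnla and Il13ra1 1427165_at), and the share over all was 15.5%. Since neither measure overlaps between the 5 week groups, its part in the 5 week results cannot be told apart from the cold. The Gapdh measure does not overlap between the 1 week groups, where it is lower in cold, nor between the 5 week groups, where it is higher. With it as a covariate 5 of the 12 probe sets were called at 1 week in place of 7, and 18.5% of all tested probe sets in place of 44.7%, so that its part in the 1 week results cannot be told apart from the cold either. At 5 weeks 10 of the 12 were called with it, and 26.4% of all tested probe sets in place of 31.1%. Its part there cannot be told apart from the cold. The share of all tested probe sets called lower was 11.2% at 1 week with the Gapdh covariate and 1.37% at 5 weeks with the Actb covariate.

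Il33, the alarmin at the head of the pathway, showed the largest fall of the 12 probe sets at 1 week. Its probe set 1416200_at read log2 signals of 6.62, 6.93 and 6.23 in 1 week cold arrays, against 8.22, 8.61 and 8.37 in 1 week controls. The 5 week arrays read 7.01, 7.56 and 7.51 in cold, against 8.20, 8.28 and 8.51 in control tissue. The highest cold array lay below the lowest control array at both times. Signal was 3.50 times lower in cold at 1 week (log2 difference -1.81, SE 0.20, limma adjusted p = 6.79e-05), and 0.396% of all tested probe sets had a more negative difference. At 5 weeks it was 1.96 times lower (log2 difference -0.97, SE 0.20, limma adjusted p = 0.00383). In order of level, Il33 stood lowest in 1 week cold tissue, at 6.59 ± 0.35 (SD, n = 3), and next in 5 week cold tissue, at 7.36 ± 0.31. The 2 control groups followed at 8.33 ± 0.16 (5 weeks) and 8.40 ± 0.20 (1 week) and did not differ beyond their spread (limma adjusted p = 0.904). Within the cold, Il33 was higher at 5 weeks than at 1 week by 0.77 (SE 0.20, limma adjusted p = 0.0155). The difference between the cold effects at 5 weeks and 1 week was 0.84 with a limma adjusted p of 0.0572, short of the threshold.

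Il4ra encodes the receptor chain that the type I and type II IL-4 receptors share, and its 2 tested probe sets gave different results at 1 week. Probe set 1421034_a_at read 7.98, 8.25 and 7.72 in 1 week cold arrays, against 8.25, 8.68 and 8.70 in controls, and 7.89, 8.02 and 7.63 in 5 week cold arrays, against 8.69, 8.61 and 8.64 in controls. The groups overlapped at 1 week, by the highest cold and the lowest control array, and were apart at 5 weeks. The fall was 0.56 on the log2 scale at 1 week (SE 0.16, limma adjusted p = 0.0162) and 0.80 at 5 weeks (SE 0.16, limma adjusted p = 0.00378). The 1 week call was lost without cold_1wk 3, control_1wk 2 or control_1wk 3, with differences of -0.71 to -0.43 over the arrays left out in turn, and without control_1wk 2 and 3 together (-0.26, limma adjusted p = 0.414). It was also lost after centring (-0.40, limma adjusted p = 0.0558), after quantile normalization (-0.38, limma adjusted p = 0.0641) and with the Gapdh covariate (-0.51, limma adjusted p = 0.168). The mean over the gene's probe sets (-0.18, limma adjusted p = 0.199) and the arrays of the comparison alone (limma adjusted p = 0.0605) did not pass either.

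The other Il4ra probe set, 1423996_a_at, read 7.12, 7.10 and 7.13 in 1 week cold arrays, against 7.08, 6.92 and 6.76 in 1 week controls. All 3 cold arrays lay above the controls, by a mean of 0.20 (SE 0.13) that did not pass the test (limma adjusted p = 0.247). At 5 weeks it read 6.83, 7.27 and 6.78 in cold, against 7.45, 7.65 and 7.59 in control tissue. It was then lower in all cold arrays, by a log2 difference of -0.60 (SE 0.13, limma adjusted p = 0.00618). The cold effect of this probe set at 5 weeks minus that at 1 week was -0.80 (limma adjusted p = 0.0173). Its control signal was also higher at 5 weeks than at 1 week, by 0.65 (limma adjusted p = 0.0287). The remaining Il4ra probe set, 1447858_x_at, stayed between 1.95 and 2.87 on the 12 arrays and was not tested.

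Il13ra1 encodes the chain that pairs with that of Il4ra in the type II receptor, which binds both IL-4 and IL-13. Probe set 1454783_at read 7.27, 7.46 and 7.23 in 1 week cold arrays, against 8.44, 8.66 and 8.93 in 1 week controls, and 7.59, 7.54 and 7.46 in 5 week cold arrays, against 8.00, 8.07 and 7.99 in 5 week controls. The groups did not overlap at either time, and the gap was wider at 1 week. Signal was 2.56 times lower in cold at 1 week (log2 difference -1.36, SE 0.12, limma adjusted p = 2.01e-05) and 1.41 times lower at 5 weeks (log2 difference -0.49, SE 0.12, limma adjusted p = 0.0104). The 5 week effect minus the 1 week effect was 0.87 (SE 0.17, limma adjusted p = 0.00919). Most of that difference lay in the controls, whose signal was lower at 5 weeks than at 1 week (log2 difference -0.66, limma adjusted p = 0.0179), while the cold groups differed by 0.21 (limma adjusted p = 0.213).

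A second probe set of Il13ra1, 1427165_at, read 6.55, 6.21 and 6.87 in 1 week cold arrays, against 6.97, 7.40 and 7.68 in controls, and 5.17, 6.19 and 5.72 in 5 week cold arrays, against 6.91, 6.74 and 6.56 in controls. It fell in the cold at both times, by 0.81 (SE 0.26, limma adjusted p = 0.0277) and by 1.05 (SE 0.26, limma adjusted p = 0.0118) on the log2 scale. The 1 week call was lost without cold_1wk 1, cold_1wk 2, control_1wk 2 or control_1wk 3 (differences of -0.997 to -0.641), and without control_1wk 2 and 3 together (-0.43, limma adjusted p = 0.444). It was also lost after centring (-0.65, limma adjusted p = 0.0548), after quantile normalization (-0.66, limma adjusted p = 0.0640), with the Gapdh covariate (-0.69, limma adjusted p = 0.243) and with the muscle covariate (-0.65, limma adjusted p = 0.0793). Probe set 1427164_at pointed the same way without passing the test, with -0.53 at 1 week (limma adjusted p = 0.214) and -0.92 at 5 weeks (limma adjusted p = 0.0547). Probe set 1451775_s_at showed no clear difference, with 0.05 at 1 week and -0.06 at 5 weeks (95% intervals -0.54 to 0.63 and -0.65 to 0.52). The fifth, 1425625_at, lay between 2.87 and 3.03 on all arrays and was not tested. The 4 tested probe sets of this gene therefore did not give 1 size for the cold effect.

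Stat6, the transcription factor below both receptors, fell at 5 weeks on both of its probe sets. Probe set 1426353_at read 9.54, 9.87 and 9.45 in 1 week cold arrays, against 10.01, 9.89 and 10.07 in controls, and 9.24, 9.49 and 8.99 in 5 week cold arrays, against 10.04, 10.04 and 9.87 in controls. Cold arrays lay below control arrays at both times, narrowly at 1 week. The log2 difference was -0.37 at 1 week (SE 0.14, limma adjusted p = 0.0551), just short of the threshold, and -0.74 at 5 weeks (SE 0.14, limma adjusted p = 0.00286). Within the cold the 5 week level was lower than the 1 week level by a log2 difference of -0.38, which did not pass the test (limma adjusted p = 0.0718). Over the alternatives its 1 week difference passed the threshold in several, among them a filter at log2 6 (limma adjusted p = 0.0459) and the skeletal muscle covariate (-0.48, limma adjusted p = 0.0175). It was further from the threshold after centring (-0.21, limma adjusted p = 0.229) and after quantile normalization (-0.27, limma adjusted p = 0.133). With the mean over the gene's probe sets its sign reversed (0.11, limma adjusted p = 0.591).

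The other probe set of Stat6, 1421708_a_at, read 8.65, 8.79 and 8.78 in 1 week cold arrays, against 8.55, 8.13 and 7.76 in 1 week controls, so that the cold arrays lay above the controls there. At 5 weeks it read 7.99, 8.32 and 7.42 in cold, against 8.81, 8.72 and 8.80 in control arrays, with the cold arrays below. The log2 differences were 0.59 at 1 week (SE 0.22, limma adjusted p = 0.0526) and -0.87 at 5 weeks (SE 0.22, limma adjusted p = 0.0137). The 1 week difference passed the threshold after centring (0.75, limma adjusted p = 0.0170), after quantile normalization (0.74, limma adjusted p = 0.0209) and with the Actb covariate (0.50, limma adjusted p = 0.0401). It also passed with a filter at log2 6 (limma adjusted p = 0.0412), with the replicate block (limma adjusted p = 0.0461) and without control_1wk 1 (0.79, limma adjusted p = 0.0154). The change between the cold effects was -1.45 (SE 0.32, limma adjusted p = 0.0133). At 1 week the lowest control values of this probe set, 8.13 and 7.76, came from control_1wk 2 and 3, the arrays with Gapdh 3' minus 5' signals of 3.00 and 3.12. With that measure as a covariate the 1 week difference was -0.081. At 5 weeks its lowest cold value, 7.42, came from cold_5wk 3, with 3.01 for Gapdh and 2.80 for Actb, and with the Actb covariate the 5 week difference was 0.034. The Gapdh measure at 1 week and the Actb measure at 5 weeks do not overlap between cold and control arrays. Their part in the values of this probe set cannot be told apart from the cold and was not tested.

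**Figure D1:**
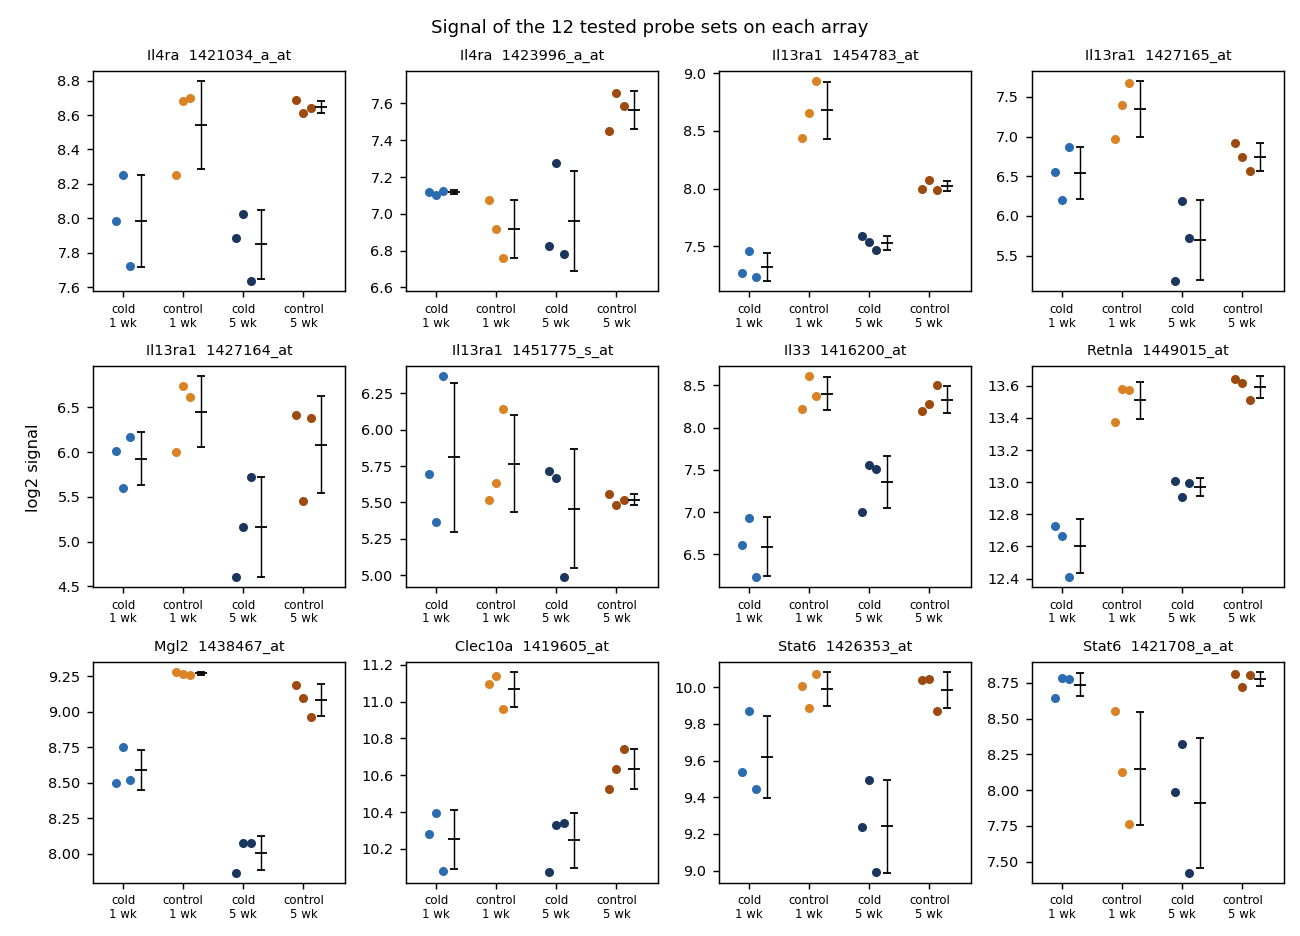
Log2 signal (vertical axes, a separate range in each panel) of the 12 tested probe sets on each array, by group along the horizontal axes. Points are single arrays, and the bars beside them give the group mean ± SD of 3 arrays. Il33 reads 6.23 to 6.93 in 1 week cold tissue, against 8.22 to 8.61 in its controls, while 1421708_a_at of Stat6 stands above its controls at 1 week and below them at 5 weeks.

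Retnla, which encodes the secreted protein RELM-alpha made by alternatively activated mouse macrophages, had a bright probe set that separated the groups at both times. It read 12.73, 12.67 and 12.41 in 1 week cold arrays, against 13.38, 13.58 and 13.58 in 1 week controls. The 5 week signals were 13.01, 12.91 and 12.99 in cold, against 13.64, 13.62 and 13.51 in control tissue. No cold array reached the lowest control array. Signal was 1.88 times lower in cold at 1 week (log2 difference -0.91, SE 0.10, limma adjusted p = 8.06e-05) and 1.54 times lower at 5 weeks (log2 difference -0.62, SE 0.10, limma adjusted p = 0.00116). In order of level, 1 week cold tissue was lowest (12.60 ± 0.17), then 5 week cold tissue (12.97 ± 0.06), then the controls at 1 week (13.51 ± 0.12) and 5 weeks (13.59 ± 0.07; SD, n = 3 each). The cold groups differed by 0.37 (5 weeks minus 1 week, limma adjusted p = 0.0216), while a difference between the control groups was not detected (0.08, limma adjusted p = 0.745).

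Since Stat6 is known to act on the Retnla promoter in the mouse, the starts of the set's genes were searched for TTC and GAA with 4 bases between them, the spacing that Stat6 prefers, and with 3 bases between them, the spacing of most other STAT factors. Both motifs read the same on both strands. RefSeq promoter windows on GRCm38.p6, of 250 bases before and 50 bases after a gene's start, were matched for 7 of the 10 genes, Il1rl1 among them, with 9 windows in all. The first motif was found in a window of 2 genes, Retnla and Il33, and the second in none. Of all 32851 windows, 6.95% held the first and 8.30% the second. The 250 bases before the start of these 2 genes are shown because they carry the matches, in capitals, at -145 to -136 from the start of Retnla and -36 to -27 from that of Il33.
Retnla promoter, chr16:48842359-48842608, plus strand: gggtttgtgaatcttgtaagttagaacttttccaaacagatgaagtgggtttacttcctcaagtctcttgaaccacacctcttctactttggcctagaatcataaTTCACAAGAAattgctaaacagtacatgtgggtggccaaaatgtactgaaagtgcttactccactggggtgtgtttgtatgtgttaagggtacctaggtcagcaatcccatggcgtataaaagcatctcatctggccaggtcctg
Il33 promoter, chr19:29924863-29925112, plus strand: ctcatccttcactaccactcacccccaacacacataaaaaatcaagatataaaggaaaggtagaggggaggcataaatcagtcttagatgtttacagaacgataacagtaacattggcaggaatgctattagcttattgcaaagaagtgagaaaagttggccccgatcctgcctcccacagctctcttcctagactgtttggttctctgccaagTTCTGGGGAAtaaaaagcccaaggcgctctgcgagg
These letters describe the windows and were not tested for binding, and both genes with a match and genes without one, such as Il4ra and Mgl2, were lower in the cold.

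Mgl2 and Clec10a encode C-type lectins of macrophages and dendritic cells that bind galactose and N-acetylgalactosamine. They are close paralogs, and whether their probes share signal was not tested. Mgl2 read 8.50, 8.75 and 8.52 in 1 week cold arrays, against 9.28, 9.27 and 9.26 in 1 week controls. The 5 week signals were 7.87, 8.07 and 8.08 in cold, against 9.19, 9.10 and 8.96 in control tissue. The cold arrays lay below the controls at both times, and further below at 5 weeks. The differences were -0.68 at 1 week (SE 0.10, limma adjusted p = 0.000402) and -1.08 at 5 weeks (SE 0.10, limma adjusted p = 4.08e-05), where signal was 2.11 times lower. Within the cold, Mgl2 was lower at 5 weeks than at 1 week by a log2 difference of -0.58 (limma adjusted p = 0.00258), and the change between the cold effects was -0.40 (limma adjusted p = 0.0731). Its 5 week call held with the Actb covariate (-1.12, limma adjusted p = 0.0234) and with the muscle covariate (-0.91, limma adjusted p = 0.00273).

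Clec10a read 10.28, 10.39 and 10.08 in 1 week cold arrays, against 11.10, 11.14 and 10.96 in 1 week controls, and 10.07, 10.33 and 10.34 in 5 week cold arrays, against 10.53, 10.64 and 10.74 in 5 week controls. The 2 cold groups stood at the same level, 10.25 ± 0.16 at 1 week and 10.25 ± 0.15 at 5 weeks (SD, n = 3 each), and the controls stood above them. The gap was larger at 1 week (log2 difference -0.81, SE 0.11, limma adjusted p = 0.000262) than at 5 weeks (-0.39, SE 0.11, limma adjusted p = 0.0238), but the difference between the gaps, 0.43, did not pass the test (limma adjusted p = 0.0826). The 5 week call was lost without cold_5wk 1, control_5wk 2 or control_5wk 3 (differences of -0.44 to -0.30) and after centring (-0.23, limma adjusted p = 0.110).

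Arg1, whose product arginase breaks down arginine and is the best known enzyme of alternative activation in mouse macrophages, was dim throughout. Its single probe set lay between 2.03 and 2.14 on all 12 arrays, below the level used for testing, and no difference could be measured. Il10, the gene of an anti-inflammatory cytokine, was as dim, between 2.24 and 2.35. At such signals the absence of a transcript and a probe set that does not read it cannot be told apart.

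**Figure D2:**
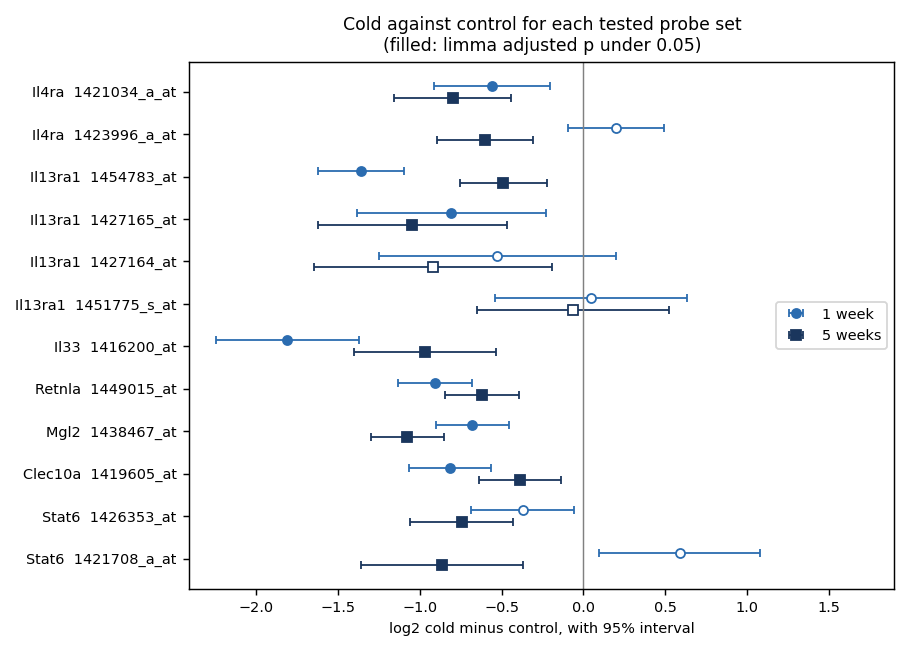
Log2 difference, cold minus control, of each tested probe set (horizontal axis) at 1 week (circles) and 5 weeks (squares), with the 95% interval of the limma fit; filled symbols have an adjusted p under 0.05. The filled symbols all lie left of 0, 7 at 1 week and 10 at 5 weeks, and the 1 week values run from -1.81 for Il33 to 0.59 for Stat6 1421708_a_at.

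Across the whole set, the cold effect differed between 5 weeks and 1 week for 3 of the 12 probe sets (background 19.6%). Il13ra1 1454783_at had a positive difference, 0.87 (background 10.2%), and 2 had a negative one (background 9.47%), Il4ra 1423996_a_at with -0.80 and Stat6 1421708_a_at with -1.45. None of the 3 was called with the Gapdh covariate or without control_1wk 2 and 3. Within the cold, 5 weeks against 1 week, 2 probe sets rose (Il33 and Retnla, background 15.6%) and 3 fell (Mgl2, Il13ra1 1427165_at and Stat6 1421708_a_at, background 12.8%). Without cold_1wk 3 or cold_5wk 3 the number called within the cold was 1, and without cold_5wk 1 it was 3. Within the controls, 1 probe set rose (Il4ra 1423996_a_at, background 2.12%) and 1 fell (Il13ra1 1454783_at, background 1.21%), and with single arrays of the controls left out the number ranged from 0 to 2.

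The set's genes are read from whole tissue, where fewer cells of a type and less RNA per cell cannot be told apart, so their signals were set beside markers of the cells that express them. Of 19 macrophage markers, all tested, 15 fell and none rose at 1 week (median -0.76), and 16 fell and none rose at 5 weeks (median -0.83); at a limma unadjusted p under 0.05, 1 rose at 1 week and 0 at 5 weeks. Over all 12855 tested genes, each read by its brightest probe set, 30.5% fell and 17.1% rose at 1 week (median -0.08), and 19.9% fell and 13.9% rose at 5 weeks (median -0.03). The mean of the macrophage markers was 9.67, 9.66 and 9.50 in 1 week cold arrays, against 10.21, 10.14 and 10.25 in controls, and 9.43, 9.57 and 9.42 in 5 week cold arrays, against 10.40, 10.38 and 10.35 in controls. It was therefore lower in cold by a log2 difference of -0.59 at 1 week and -0.90 at 5 weeks, and its part in the falls of the set was not tested. The marker C1qa, a complement gene named after its values were seen, differed by 1.53 at 1 week and -2.62 at 5 weeks. The mean of the other 18 markers differed by -0.71 and -0.81, an alternative chosen after seeing the data. The macrophage markers that fell numbered 11 at 1 week with the Gapdh covariate and 10 without control_1wk 2 and 3, and 4 at 5 weeks with the Actb covariate and 12 with the muscle covariate.

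Relative to the mean of all 19 macrophage markers, which was subtracted on each array as a description, the set's probe sets differed in their patterns. Il33 was still lower in 1 week cold arrays, by -1.22 with no overlap of the groups, and overlapped its controls at 5 weeks (-0.07). Since Il33 is known from stromal cells, the macrophage mean does not measure its source, and a stromal mean was not subtracted. Il13ra1 1454783_at was lower at 1 week (-0.77) and higher at 5 weeks (0.41), without overlap at either time. Its other probe sets did not share that pattern: 1427165_at (-0.22 and -0.14) and 1427164_at (0.06 and -0.02) overlapped their controls at both times, and 1451775_s_at overlapped them at 1 week (0.64) and lay above them at 5 weeks (0.84). Retnla lay below its controls at 1 week (-0.32) and above them at 5 weeks (0.28). Clec10a overlapped its controls at 1 week (-0.22) and lay above them at 5 weeks (0.52), and Mgl2 overlapped them at both times (-0.09 and -0.17). The 2 probe sets of Il4ra differed, since 1421034_a_at overlapped its controls at both times (0.03 and 0.10) and 1423996_a_at lay above them at both (0.79 and 0.30). For Stat6 both probe sets lay above their controls at 1 week, 1426353_at by 0.22 and 1421708_a_at by 1.18, and overlapped them at 5 weeks (0.16 and 0.04). Without C1qa in the mean the values of Retnla were -0.20 and 0.19, with the groups still apart. At 5 weeks Mgl2 then lay below its controls (-0.27) and Il4ra 1423996_a_at overlapped them (0.21), while no other probe set changed between overlapping and lying apart.

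**Figure D3:**
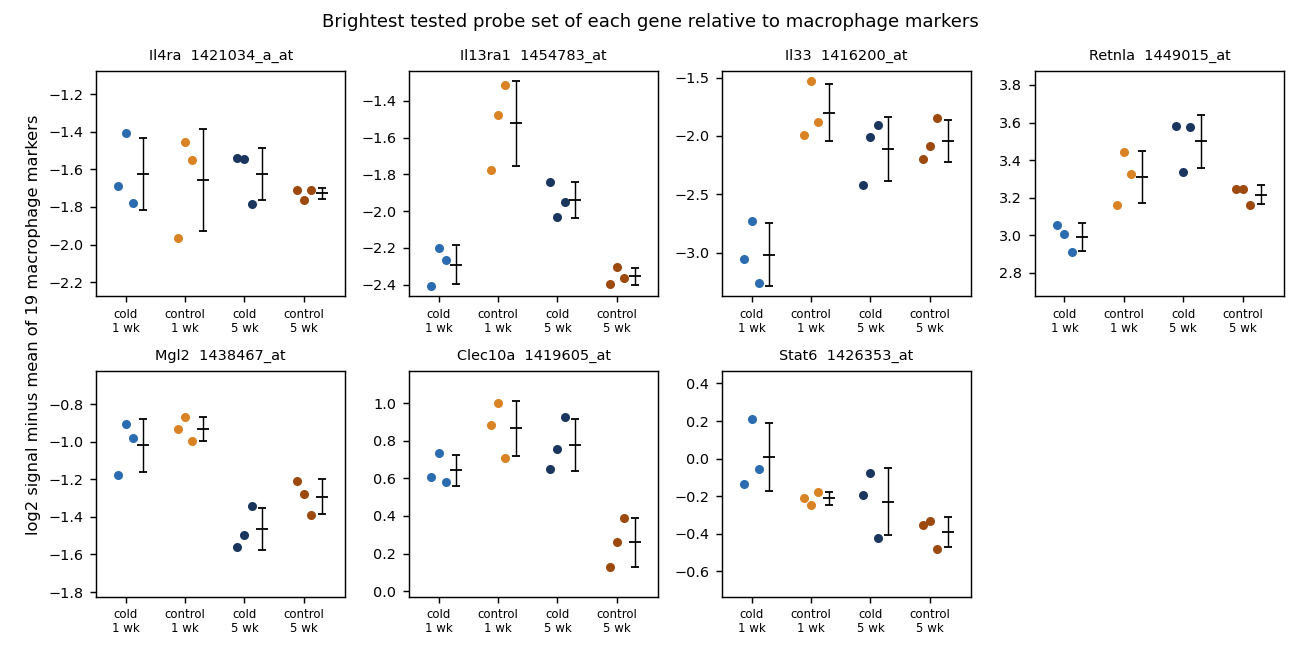
Log2 signal of the brightest tested probe set of each gene minus the mean of 19 macrophage markers on the same array (vertical axes), by group; points are arrays and bars the mean ± SD of 3. Il33 lies below its controls at 1 week (difference -1.22) and overlaps them at 5 weeks (-0.07), and Clec10a lies above its controls at 5 weeks (0.52).

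Markers of other cells that make or answer type 2 cytokines fell in part, where they could be read. Beside the counts below, 30.5% of all tested genes fell and 17.1% rose at 1 week, and 19.9% and 13.9% at 5 weeks. Of the 11 markers of group 2 innate lymphoid and Th2 cells 6 were tested, of which 4 fell at 1 week and 3 at 5 weeks. Il7r, Icos and Thy1 fell at both times and Rora at 1 week only. The 5 other tested probe sets of Rora ran from -0.9 to 0.28 at 1 week and from -0.77 to 0.05 at 5 weeks. Gata3 (-0.26 and -0.05) and Klrg1 (0.26 and -0.12) were not called at either time. The list's mean ran from 6.73 to 7.01 in 1 week cold arrays, against 7.37 to 7.78 in controls, and from 7.24 to 7.30 in 5 week cold arrays, against 7.57 to 7.67 in controls, while Il4, Il5 and Il13 stayed below the filter. Mast cell markers fell in 3 of 6 at each time, and dendritic cell markers in 4 of 6. Eosinophils could not be followed, since Siglecf, Epx, Prg2 and Ccr3 were below the filter and the 2 tested markers were not called. T and B lymphocyte markers fell in 10 of 10 at 1 week and 9 of 10 at 5 weeks. Fibroblast and progenitor markers, from the stromal cells known to make Il33 in fat, fell in 9 of 10 and 8 of 10, with a list mean of 11.04 to 11.33 in 1 week cold arrays, against 11.79 to 11.94 in controls, and 10.94 to 11.11 in 5 week cold arrays, against 11.47 to 11.61 in controls. White adipocyte markers showed 3 rises and 2 falls of 10 at 1 week and 2 falls at 5 weeks. Endothelial markers showed 2 rises and 1 fall of 8 at 1 week (median -0.04) and 3 falls at 5 weeks (median -0.24). Mesothelial markers other than Gpm6a (-1.42 at 1 week) were below the filter. Without control_1wk 2 and 3, which left 1 control array at 1 week, fewer markers of the lymphoid, lymphocyte and fibroblast lists were called lower there. With the Actb covariate the falls at 5 weeks numbered 0 for the lymphoid list, 1 for T and B lymphocytes and 0 for fibroblasts, beside 1.37% of all tested probe sets. The part of any of these cells in the set's values was not tested.

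Among the other cytokines and receptors of type 2 immunity, 18 genes were listed and 11 tested. At 1 week 1 rose and 3 fell (median -0.25), beside 17.1% and 30.5% of all tested genes. Il7r, the receptor chain for IL-7 and TSLP, fell most (8.23 ± 0.05 in cold, 9.80 ± 0.43 in control tissue; SD, n = 3 each; log2 difference -1.57, limma adjusted p = 6.46e-05). Csf2rb, the chain shared by the receptors for IL-3, IL-5 and GM-CSF, differed by -0.74 and Il10rb by -0.45, while Csf2, the gene of GM-CSF, rose by 0.66 (limma adjusted p = 0.00196, 0.00134 and 0.0162). Csf2 was dim, with means of 4.95 in cold and 4.28 in control tissue, near the filter at log2 4. At 5 weeks 1 rose and 3 fell again (median -0.11), beside 13.9% and 19.9% of all tested genes. Il10ra, the ligand-binding chain of the IL-10 receptor, was below log2 4 on all 5 week cold arrays and averaged 6.22 ± 0.21 in controls, at least 4.67-fold lower in cold (limma adjusted p = 6.23e-06). Il7r (-0.65, limma adjusted p = 0.0143) and Il10rb (-0.30, limma adjusted p = 0.0194) were lower as well, and Il4i1, an IL-4-induced amino acid oxidase, was higher, at least 1.19-fold (limma adjusted p = 0.0151). Il4i1 was dim, with means of 4.23 in 5 week cold and 3.56 in 5 week control tissue. Its control arrays all lay below log2 4, so that it passed the filter only through cold arrays, which limits what its rise can show. Il4, Il5, Il9, Il13, Il25 and Il17rb lay below the filter, so that the main ligands of the set's receptors could not be followed. The 5 week call of Il10rb was lost after centring (-0.14, limma adjusted p = 0.222). With the Actb covariate the list had 1 fall at 5 weeks. A second probe set of Il10rb pointed the other way at both times.

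STAT6 signalling partners and kinases gave 2 rises and 10 falls of 21 tested at 1 week (median -0.38), and 3 rises and 6 falls at 5 weeks (median -0.20). Over all tested genes 17.1% rose and 30.5% fell at 1 week, and 13.9% and 19.9% at 5 weeks. At 1 week Cish, a feedback inhibitor of STAT signalling, read 7.15 ± 0.18 in cold and 8.93 ± 0.53 in control tissue (SD, n = 3 each; log2 difference -1.77, limma adjusted p = 0.000732). The histone acetyltransferase gene Ep300 (-0.98, limma adjusted p = 0.000239) and the receptor kinases Tyk2 (-0.81, limma adjusted p = 0.000122) and Jak2 (-0.79, limma adjusted p = 0.00142) fell with it. At 5 weeks the phosphatase gene Ptpn6 (-1.52, limma adjusted p = 0.000471) and Stat3 (-1.22, limma adjusted p = 0.000590) fell, and Ptpn11 (0.64, limma adjusted p = 0.00114) and Stat5a (0.62, limma adjusted p = 0.00211) rose. A second probe set of Tyk2 gave a difference of opposite sign at 1 week, and so did that of Stat5a at 5 weeks. The falls of this list numbered 3 at 1 week with the Gapdh covariate and 0 at 5 weeks with the Actb covariate.

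Transcription factors of alternative activation gave 3 rises and 5 falls of 13 tested at 1 week (median -0.27; all tested genes 17.1% and 30.5%) and 2 rises and 4 falls at 5 weeks (median -0.08; all tested genes 13.9% and 19.9%). Cebpb, which drives Arg1 in mouse macrophages and also adipocyte differentiation, read 12.21 ± 0.08 in 1 week cold tissue and 10.36 ± 0.48 in its controls (SD, n = 3 each; log2 difference 1.85, limma adjusted p = 0.000124) and rose at 5 weeks by 1.15 (limma adjusted p = 0.00315). Ppargc1b, a coactivator of mitochondrial genes in macrophages and adipocytes, rose by 1.63 and 1.82 (limma adjusted p = 4.97e-05 and 3.77e-05). Maf fell at both times (-0.94 and -0.59, limma adjusted p = 2.72e-05 and 0.000633), Klf4 at 1 week (-0.65, limma adjusted p = 0.000748) and Myc at 5 weeks (-0.97, limma adjusted p = 0.00336). The falls numbered 2 at 1 week with the Gapdh covariate, 0 at 5 weeks with the Actb covariate and 2 at 5 weeks without cold_5wk 3.

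Further genes of alternative activation had a median of -0.65 at 1 week, with 13 of 21 tested lower and 0 higher (0 also at a limma unadjusted p under 0.05), and of -0.62 at 5 weeks, with 13 lower and 1, Tgm2, higher by 0.35. The 4 other tested probe sets of Tgm2 ran from -0.26 to 0.44 at 5 weeks. Of all tested genes 30.5% were lower at 1 week and 19.9% at 5 weeks. Cd163 and Mrc1 of this list are also among the macrophage markers. Igf1, a growth factor that stromal cells also make, read 10.82 ± 0.27 in 1 week cold tissue and 12.45 ± 0.20 in controls (SD, n = 3 each; log2 difference -1.63, limma adjusted p = 2.99e-05). The lectin genes Cd209a (-1.43) and Mrc1 (-0.99) and the hyaluronan receptor gene Lyve1 (-0.79) fell at 1 week too (limma adjusted p = 0.000523, 0.000124 and 0.000241). At 5 weeks the folate receptor gene Folr2 read 7.58 ± 0.32 in cold and 9.42 ± 0.12 in control tissue (SD, n = 3 each; log2 difference -1.85, limma adjusted p = 6.08e-05). Cd209a (-1.46), the chemokine gene Ccl8 (-1.06) and Cd209d (-0.88) were lower there as well (limma adjusted p = 0.000732, 0.000379 and 0.000584). The falls numbered 9 at 1 week with the Gapdh covariate and 1 at 5 weeks with the Actb covariate.

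Genes of classical activation, the opposite macrophage state, showed 4 falls of 11 tested at 1 week (median -0.40) and 5 at 5 weeks (median -0.13), with 0 rises at either time, also at a limma unadjusted p under 0.05. Of all tested genes 30.5% fell and 17.1% rose at 1 week, and 19.9% and 13.9% at 5 weeks. The chemokine gene Ccl5 read 10.36 ± 0.26 in 1 week cold tissue and 11.53 ± 0.32 in controls (SD, n = 3 each; log2 difference -1.17, limma adjusted p = 0.000259), and differed by -1.25 at 5 weeks (limma adjusted p = 0.000293). Cd86, a costimulatory molecule, fell by 0.60 and 1.01 on the log2 scale (limma adjusted p = 0.0169 and 0.00158), and the interferon factor Irf1 by 0.44 and 0.56 (limma adjusted p = 0.00437 and 0.00186). Cxcl9 (-0.75 at 1 week, limma adjusted p = 0.0276) and Irf5 (-1.03 at 5 weeks, limma adjusted p = 0.000918) were lower at the time named. The 1 week calls of Cd86 and Cxcl9 were lost after centring (-0.44 and -0.59, limma adjusted p = 0.0607 and 0.0661) and after quantile normalization (-0.42 and -0.64, limma adjusted p = 0.0797 and 0.0579). Nos2, Il6 and Il12b, among its best known members, lay below the filter. Tnf (0.05 at 1 week and -0.02 at 5 weeks) and Il1b (0.31 and -0.09) were tested and not called at either time. The falls numbered 1 at 1 week with the Gapdh covariate and 1 at 5 weeks with the Actb covariate.

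**Figure D4:**
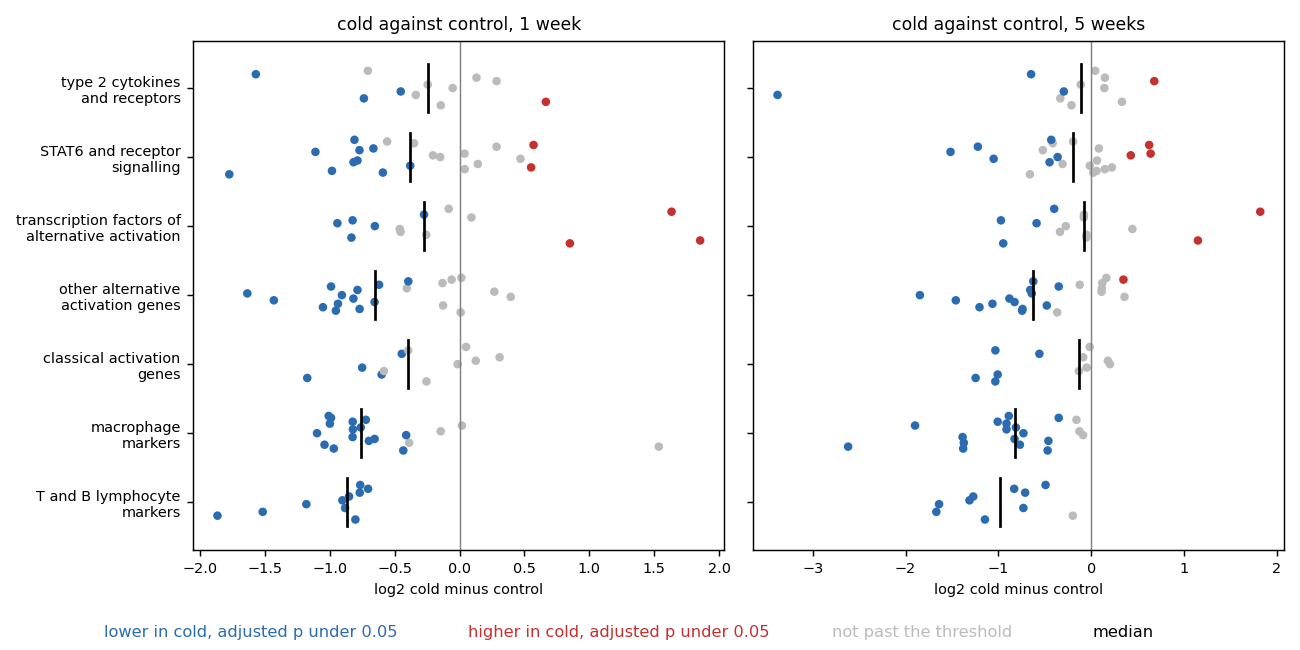
Log2 difference, cold minus control, of each tested gene (points, brightest probe set) of 5 pathway lists and 2 marker lists at 1 week (left) and 5 weeks (right). Blue points are lower and red points higher in cold with limma adjusted p under 0.05, grey points did not pass, and black bars are list medians. The other alternative activation genes have medians of -0.65 and -0.62, and the macrophage markers -0.76 and -0.83.

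The genes whose signal followed each member most closely over the 12 arrays are given with Pearson's r as a description, since the arrays share the group differences. For Il33 they were Clu (0.985), Rps7 (0.984) and Bcl2 (0.979). For Il4ra they were Fxyd5 (0.982), Tmem179b (0.980) and Cd52 (0.976), and for Il13ra1 Camk2d (0.973), Zfp658 (0.969) and Plxdc2 (0.968). Stat6 was followed by Eif3k (0.975), Slc15a4 (0.974) and Rpl41 (0.973). Retnla was followed by Slco2b1 (0.988), Ccdc80 (0.981) and Tram2 (0.980), Mgl2 by Rpl38 (0.984), Chsy1 (0.981) and Sdf4 (0.980), and Clec10a by Dpep1 (0.983), Pdgfc (0.981) and Rpn1 (0.961). No member was among the 3 closest genes of another member.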

How the data were processed

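The values analysed are the log2 signals the authors deposited, which come from GCRMA per the submitters' processing notes, with no version or settings named there. GCRMA corrects background, normalizes between arrays and combines the probes of a probe set, and it compresses dim signals. Symbols came from the array annotation, updated by gene identifier. Of 45101 probe sets 64 were controls, and array medians ran from 4.79 to 4.89.

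Probe sets above log2 4 on at least 3 arrays were fitted with limma 3.58.1 in R 4.3.3, as 4 group means over 12 arrays with 8 residual degrees of freedom, with 2-sided p-values and Benjamini-Hochberg adjustment over all 26510. The fit was tested on simulated data. Lists were read by each gene's brightest probe set; up to 4 called genes per list and week with the smallest adjusted p were named, and 3 genes per member by Pearson's r. Tgm2, Gpm6a, Tnf, Il1b, Icos, Thy1, Rora, Gata3 and Klrg1 were named after their values were seen. The members, lists and tests were chosen with earlier results of these data known. Where all cold or control arrays lay below log2 4, folds set signals below 4 to 4. Samples sharing a replicate number did not deviate together. Alternatives covered the filter, probe sets, scaling, covariates, a replicate block and arrays left out. The number of arrays limits the precision.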

Additional observations from a re-analysis of the deposited data

Results flagged for a closer look

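For 3 of the 12 tested probe sets of the set the cold effect at 5 weeks differed from that at 1 week in the limma interaction test (cold minus control at 5 weeks, minus the same at 1 week, on the log2 scale). Il13ra1 1454783_at differed by 0.87 (limma adjusted p = 0.00919), from -0.49 at 5 weeks and -1.36 at 1 week. Il4ra 1423996_a_at differed by -0.80 (limma adjusted p = 0.0173), from -0.60 at 5 weeks and 0.20 at 1 week. Stat6 1421708_a_at differed by -1.45 (limma adjusted p = 0.0133), from -0.87 at 5 weeks and 0.59 at 1 week. None of the 3 was called with the Gapdh or with the Actb covariate. Over all tested probe sets 19.6% passed the interaction test without covariates, and 3 of 12 lies near that share.

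Of the 31 pathway genes named as the up to 4 called genes per list and week, 9 passed it. These genes were named for their small adjusted p at 1 of the 2 times, so their share is not set against the 19.6%. The difference was 0.92 for Il7r, 0.85 for Jak2, 1.04 for Ep300, 0.64 for Mrc1 and 0.99 for Igf1 (limma adjusted p = 0.0242, 0.0186, 0.00714, 0.0262 and 0.0135). On these brightest probe sets each gene was lower in the cold at 1 week and nearer to its control at 5 weeks. Another tested probe set of Jak2 did not come nearer, with -0.56 at 1 week and -0.55 at 5 weeks. The 3 other tested probe sets of Igf1 ran from -1.31 to -0.64 and from -1.06 to -0.58. The difference was -0.94 for Folr2 and -3.04 for Il10ra (limma adjusted p = 0.0310 and 0.00188), which lay further below control at 5 weeks. The Il10ra value rests on 5 week cold signals below log2 4. Stat3 differed by -1.51, from -1.22 at 5 weeks and 0.28 at 1 week, and Ptpn11 by 0.60, from 0.64 at 5 weeks and 0.04 at 1 week (limma adjusted p = 0.00614 and 0.0202). The 2 other tested probe sets of Stat3 did not share its pattern. They lay at -0.82 to -0.57 at 1 week and nearer to control, at -0.5 to -0.16, at 5 weeks. With the Gapdh covariate 0 of these 9 genes kept the call (4 at a limma unadjusted p under 0.05), and 5 of all 26510 tested probe sets passed, in place of 5203. With the Actb covariate 0 of the 9 (2 unadjusted) and 0 of all (2151 unadjusted) passed, and with the muscle covariate 2 of the 9 and 1485 of all. Without control_1wk 2 and 3 the numbers were 1 of the 9 and 331 of all, and without cold_5wk 3 they were 6 and 3290. All 9 differences kept their sign under these 5 alternatives, which were added for these genes after seeing the data.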

How the results depend on the processing

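The falls of Il33, Retnla, Mgl2 and Il13ra1 1454783_at at both times, and of Clec10a at 1 week, held their call with each single array of the comparison left out, without the filter, with quantile normalization or centring and with the Gapdh covariate. The Gapdh measure does not overlap between cold and control at either time. For Il13ra1 1454783_at at 5 weeks the centred value only just passed (-0.34, limma adjusted p = 0.04996). Of these genes' 5 week calls, only that of Mgl2 held with the Actb covariate. With the muscle covariate those of Mgl2 and Retnla held, and those of Il33 and Il13ra1 1454783_at did not. The number of member probe sets called ranged from 5 to 8 at 1 week and from 9 to 11 at 5 weeks with single arrays of the comparison left out, from 3 to 4 for the difference of the cold effects, from 1 to 5 within the cold and from 0 to 2 within the controls. Without cold_5wk 3, which is outside the 1 week comparison but shares its estimate of the spread, the number at 1 week was 9. At 5 weeks it was 1 with the Actb covariate and 3 with the muscle covariate. For the difference of the cold effects it was 1 with the brightest probe set of each gene, 1 with the muscle covariate, and 0 with the Gapdh covariate, with the Actb covariate and without control_1wk 2 and 3. Within the cold it was 3 with the brightest probe set, 1 with the arrays of the comparison alone, 2 with the Gapdh covariate and 0 with the Actb covariate. Within the controls it was 1 with the brightest probe set, with the arrays of the comparison alone and with the muscle covariate, and 0 with the mean over probe sets, with the Gapdh covariate and without control_1wk 2 and 3.

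The fit with the replicate number as a block called 9 at 1 week, 11 at 5 weeks, 4 for the difference of effects, 5 within the cold and 2 within the controls; same-numbered arrays correlated at -0.09 to 0.08, so the numbers do not pair the samples.

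Signs that reversed at 1 week were those of Il4ra 1423996_a_at (-0.18 with the mean over probe sets, -0.10 with the Gapdh covariate), Stat6 1426353_at (0.11 with the mean over probe sets), Stat6 1421708_a_at (-0.081 with the Gapdh covariate), Il13ra1 1427164_at (0.070 with it) and Il13ra1 1451775_s_at (-0.66, -0.18 and -0.051 with the mean over probe sets, the Gapdh and the Actb covariate, and -0.23 to 0.27 with single arrays left out). At 5 weeks they were those of 1451775_s_at (0.092 centred, 0.078 with the Gapdh covariate, 0.97 with the Actb covariate, -0.19 to 0.17 with single arrays left out) and Stat6 1421708_a_at (0.034 with the Actb covariate). Why these values moved was not tested, except that the mean over probe sets joins probe sets that disagree.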
